A study of Mus musculus with 2 samples.

Results

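The insulin-like growth factor (IGF) genes described here are the ligands Igf1 and Igf2, the receptors Igf1r and Igf2r, and the binding protein genes Igfbp2, Igfbp3, Igfbp4, Igfbp5, Igfbp6 and Igfbp7. They were taken by gene symbol, 10 genes of 22072 in the deposited tables, and all 10 were listed, on 17 transcript rows. The libraries came from lower molar mesenchyme of mouse embryos at embryonic day 14.5 on a mixed background. One was made from Osr2-/- mutants (n = 1) and the other from Osr2+/- controls (n = 1), so the controls also lacked 1 working copy of Osr2. Laser capture took the mesenchyme from sections of frozen heads, and tissue of 3 pairs of mutant and control samples was pooled before RNA extraction. With 1 library per genotype there was no replicate check. The differences below are differences between these 2 libraries, and no test of the genotypes could be made. Each library had its own lane, per the file names, and an effect of lane cannot be told apart from one of genotype.

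IGF ligands are secreted growth factors that signal through the receptor tyrosine kinase encoded by Igf1r. The receptor encoded by Igf2r, which also carries mannose 6-phosphate tagged enzymes, binds Igf2 without a kinase and takes it into lysosomes. The binding proteins hold the ligands outside the cell, where they can withhold them from the receptor or carry and store them, and proteases such as Pappa release the ligand again. In the fetus Igf2 is the abundant ligand, and the family is known for setting embryo size and for acting on bone and tooth tissue.

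Osr2, the targeted gene, codes for a transcription factor with zinc fingers. It had 9.16 RPKM in the mutant library and 38.7 RPKM in the control library, a ratio of 0.236. RPKM counts reads relative to transcript length and to the mapped reads of the library. Which exons the mutant allele lacks was not known here, so the level of the whole transcript is a partial check of the label. The mutant library was 6.38 times as deep, at about 34.3 M against 5.38 M mapped reads, so the control limits the precision. All 16 dental mesenchyme markers were listed. They summed to 502 RPKM in the mutant and 574 RPKM in the control. Of the 13 tested, none was at least 1.5-fold higher and 2 were lower, against 2.47% and 3.52% of all genes tested. Their median log2 ratio was -0.21, against -0.05 over all genes tested. Msx1 had 36.8 RPKM in the mutant and 40.0 RPKM in the control, and Pax9, one of the lower pair, had 39.4 RPKM in the mutant and 61.7 RPKM in the control. Their part in the levels below was not tested. Markers of other cells were also found. Summed over the 13 listed, dental epithelium markers stood at 62.0 RPKM in the mutant and 44.2 RPKM in the control. Of the 11 tested, 3 were at least 1.5-fold higher, against 2.47% of all genes tested. None was lower, and the median log2 ratio was 0.38. Among the 3, Krt18 reached 1 RPKM only in the mutant library. Shh had 0.175 RPKM in the mutant (about 16 reads) and 0 in the control. The counting interval of its fold, explained below, held 1, so its 0 in the shallower control shows no difference. Endothelial markers stood at 28.1 RPKM in the mutant and 33.8 RPKM in the control, and erythroid markers at 926 RPKM in the mutant and 1162 RPKM in the control. The Y-linked gene Ddx3y was listed at 0 in the mutant and had 3.28 RPKM in the control, and Xist had 29.95 RPKM in the mutant and 5.21 RPKM in the control, so the sex of the pooled embryos and their genotype cannot be told apart. In pooled tissue, fewer cells of a type and less RNA per cell cannot be told apart.

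Igf2 was by far the most abundant of these genes in both libraries, and by summed RPKM Igf1 differed most between them. With the most abundant row of each gene alone, Igfbp5 did, at a log2 ratio of 0.62 against 0.51 for Igf1. The order of levels in the mutant library was Igf2 at 141 RPKM, Igfbp4 at 46.6, Igfbp3 at 27.8, Igfbp5 at 19.99, Igfbp2 at 11.6, Igf2r at 9.22, Igf1 at 7.99, Igf1r at 6.06 and Igfbp7 at 1.23 RPKM. In the control library the order was Igf2 at 137 RPKM, Igfbp4 at 57.3, Igfbp3 at 19.98, Igfbp5 at 12.6, Igfbp2 at 12.3, Igf2r at 8.67, Igf1r at 5.75, Igf1 at 3.94 and Igfbp7 at 1.88 RPKM. The order was thus the same but for Igf1, which stood above Igf1r in the mutant library and below it in the control library. No neighbours in this order had overlapping counting intervals in the mutant library. In the control library those of Igfbp5 and Igfbp2 overlapped, and so did those of Igf1 and Igfbp7. A counting interval is the 95% range that a number of reads allows by chance. It rests on read numbers estimated from coverage and leaves out all variation between embryos, dissections and amplifications. Igfbp6, whose product prefers Igf2 to Igf1, was listed at 0 RPKM in both libraries.

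**Figure D1:**
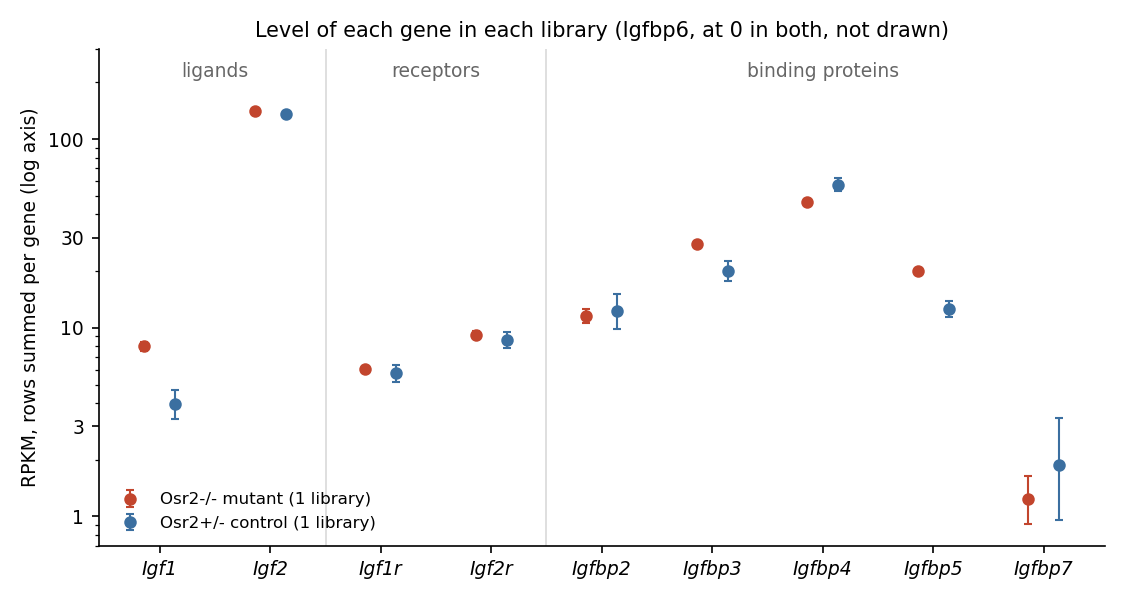
RPKM of the 9 genes listed above 0, on a log axis, in the mutant library (red) and the control library (blue), with 95% counting intervals. Igf1 and Igfbp5 stand higher in the mutant library and Igfbp4 lower, while Igf2 stands at 141 RPKM in the mutant and 137 RPKM in the control.

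Igf1 and Igfbp5 stood 1.5-fold or more above the control in the mutant library, 2 of the 9 genes that reached 1 RPKM in a library, and none of the 9 was 2-fold apart. These folds were judged after adding 1 RPKM to both levels, so those of low genes come out too small. None was 1.5-fold lower, and 7 lay within 1.5-fold. Of all 9741 genes tested, 0.801% were higher and 0.77% lower by 2-fold or more. By 1.5-fold or more, 2.47% were higher and 3.52% lower. Among the 3565 genes with a mean of at least 5 RPKM, which include 8 of the 9 IGF genes, the shares at 1.5-fold were 1.12% higher and 1.94% lower. The median log2 ratio was 0.06 over the 9 genes and -0.05 over all genes tested. The median absolute log2 ratio was 0.29 over the 9 genes, against 0.17 over all genes tested. A counting interval of the fold lay above 1 for Igf1, Igfbp3 and Igfbp5 and below 1 for Igfbp4, against 7.77% above and 15.9% below among all genes tested. These shares are not matched for read number, on which the width of an interval depends. In the control these IGF genes had from about 126 reads (Igf1) to 637 (Igfbp4), against a median of 57.0 per gene tested.

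**Figure D2:**
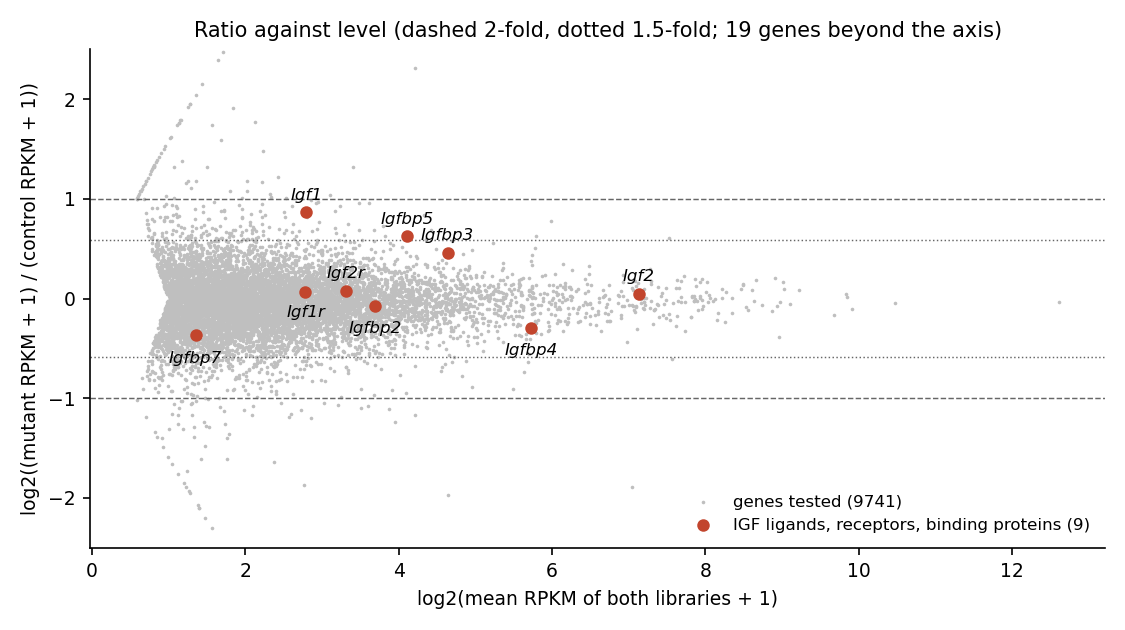
Log2 ratio of mutant over control (RPKM + 1) against the log2 of the mean level for 9741 genes tested (grey) and the 9 IGF genes tested (red), with 19 genes beyond the axis. Igf1 lies between the dotted 1.5-fold line and the dashed 2-fold line, Igfbp5 just above the dotted line, and the others between the dotted lines.

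Among the ligands, Igf1 was higher in the mutant library and Igf2 was level. Igf1, which in postnatal liver is made in response to growth hormone and elsewhere acts locally, summed to 7.99 RPKM in the mutant library (counting interval 7.58 to 8.42) and 3.94 RPKM in the control library (3.28 to 4.69). The log2 ratio was 0.86, and 104 of the 9741 genes tested had a higher one. The plain ratio of the summed RPKM was 2.03. Counted in reads over all its rows, about 1414 in the mutant and 126 in the control, and scaled for depth, Igf1 was 1.76-fold higher (1.47 to 2.13). The intervals of the levels in the 2 libraries did not overlap.

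In mm9, Igf1 spans 87321801 to 87399792 of chromosome 10, with 5 rows that have either of a pair of start sites. The row NM_001111275, of 7069 bases, held most of its RPKM, with 4.98 in the mutant and 3.20 in the control (1.55-fold, 1.29 to 1.89). The shorter row NM_184052, of 1087 bases, begins at the downstream start. It had 2.56 RPKM in the mutant (about 95 reads) and 0.736 RPKM in the control (about 4 reads), 3.48-fold higher (1.36 to 12.3). NM_010512 had 0.456 RPKM in the mutant and 0.000639 RPKM in the control. The other two rows were listed at nearly 0 in both libraries. All 3 rows above nearly 0 were higher in the mutant, and the size of the Igf1 fold depends on how reads were shared out among them: 1.55 with the most abundant row, 1.76 by reads and 2.03 by summed RPKM. With that row alone the log2 ratio was 0.51, within the 1.5-fold limit.

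Igf2, the fetal growth factor gene expressed from the paternal copy, was at 141 RPKM in the mutant library (139 to 143) and 137 RPKM in the control library (132 to 142). Its log2 ratio was 0.05 and the fold of its reads 1.04 (0.997 to 1.08), so the intervals overlapped. Expressed as the ratio of the ligands, Igf2 exceeded Igf1 17.7-fold in the mutant library and 34.7-fold in the control library. Together the ligands summed to 149 RPKM in the mutant and 141 RPKM in the control.

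Within this level sum, the 3 listed transcripts of Igf2 differed in both directions. They share their 3′ end and start at 3 sites on the minus strand of chromosome 7, in mm9 at 149846940 (NM_001122736), 149844709 (NM_010514) and 149843386 (NM_001122737). NM_001122736, with the most upstream start, had 51.9 RPKM in the mutant and 35.4 RPKM in the control (1.47-fold, 1.36 to 1.59). NM_010514 had 28.0 RPKM in the mutant and 23.1 RPKM in the control (1.21-fold, 1.10 to 1.33). NM_001122737, with the most downstream start, had 61.5 RPKM in the mutant and 78.2 RPKM in the control, a ratio of 0.787 (0.745 to 0.832). Its share of the Igf2 RPKM was 43.5% in the mutant and 57.2% in the control, while that of NM_001122736 was 36.7% in the mutant and 25.9% in the control. NM_001122737 was the highest row in both libraries, and that row alone gave Igf2 a log2 ratio of -0.34.

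The rows were told apart by few bases. In the GENCODE models of the same accessions, 374 bases of NM_001122736, 1126 of NM_010514 and 112 of NM_001122737 lie in none of the other 2. The models are longer than the listed rows, with 4722 against 4038 bases for NM_010514 and 3970 against 3701 for NM_001122736. The bases that set the rows apart may thus be fewer. The counting intervals of single rows do not cover the error of this assignment, which was not measured.

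**Figure D3:**
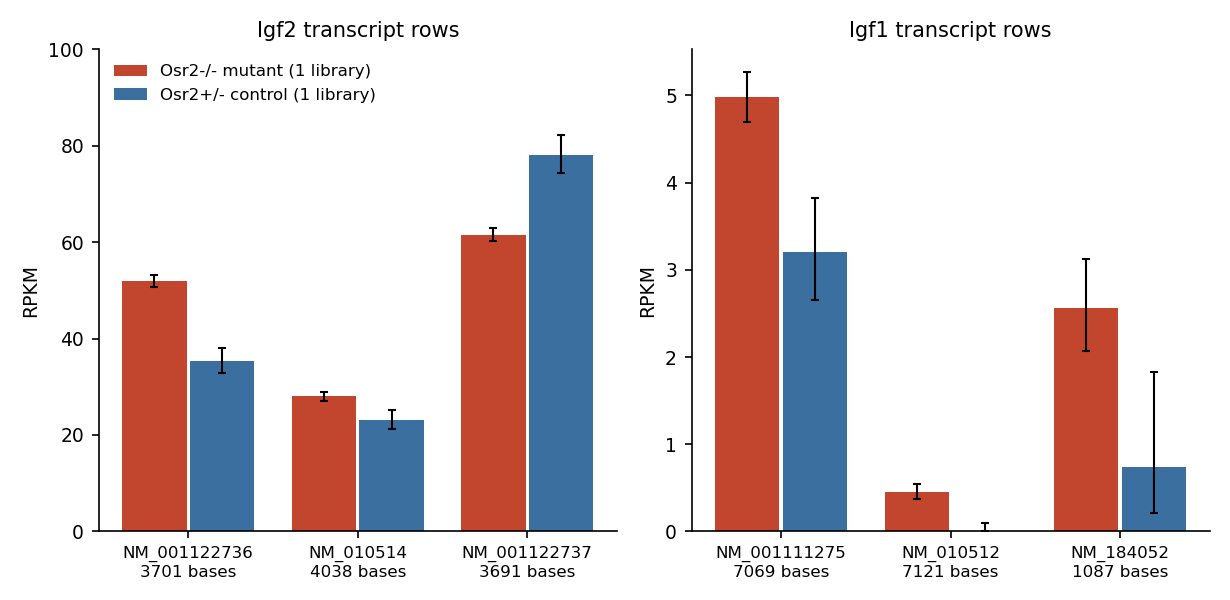
RPKM of the 3 transcript rows of Igf2, in order from the most upstream start, and of the 3 rows of Igf1 above nearly 0, in the mutant library (red) and the control library (blue), with 95% counting intervals. The Igf2 row NM_001122736 stands at 51.9 in the mutant and 35.4 in the control and NM_001122737 at 61.5 in the mutant and 78.2 in the control, while the 3 Igf1 rows are all higher in the mutant.

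The start windows of the Igf2 rows that differed in opposite directions are shown because the difference lies between starts of 1 gene. Each window runs from 250 bases before to 50 bases after a RefSeq start in GRCm38.p6, on the minus strand, at chr7:142661222-142661521 for NM_001122736 and chr7:142657447-142657746 for NM_001122737. Capitals mark any match, on either strand, to the TATA box TATAAA, the GC box GGGCGG, the Runx core ACCACA or AGTAGC, a core of the known Osr binding sequence.
Igf2 NM_001122736: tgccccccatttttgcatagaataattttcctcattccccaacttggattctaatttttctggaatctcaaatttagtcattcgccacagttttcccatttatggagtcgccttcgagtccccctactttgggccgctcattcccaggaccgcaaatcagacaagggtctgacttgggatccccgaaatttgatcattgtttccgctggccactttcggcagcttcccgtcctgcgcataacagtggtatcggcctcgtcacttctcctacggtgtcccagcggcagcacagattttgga
Igf2 NM_001122737: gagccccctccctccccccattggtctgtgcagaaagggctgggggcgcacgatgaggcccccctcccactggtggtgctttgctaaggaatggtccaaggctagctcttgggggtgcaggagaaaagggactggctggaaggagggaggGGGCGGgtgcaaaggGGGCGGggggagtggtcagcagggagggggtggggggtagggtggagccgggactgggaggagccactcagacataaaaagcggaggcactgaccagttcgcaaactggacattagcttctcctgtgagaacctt
The NM_001122737 window held 2 GC boxes, at 100 and 85 bases before the start, and 63.3% G and C. The NM_001122736 window held none of the 4 motifs, had 49.7% G and C and held 14 CG pairs, against 7 in the other window. Of 32817 such windows of all genes, 35.6% held a GC box.

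The receptors were nearly equal in both libraries. Igf1r, the signalling receptor, on chromosome 7 from 75097143 to 75378553, had 6.06 RPKM in the mutant library (5.82 to 6.30) and 5.75 RPKM in the control library (5.18 to 6.37), 1.05-fold (0.944 to 1.18). Igf2r, on chromosome 17 from 12875272 to 12962572, had 9.22 RPKM in the mutant (8.88 to 9.56) and 8.67 RPKM in the control (7.86 to 9.54), 1.06-fold (0.959 to 1.18). Both pairs of intervals overlapped. Igf2r exceeded Igf1r 1.52-fold in the mutant library and 1.51-fold in the control library.

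The binding protein genes differed in composition more than in sum. The 6 genes summed to 107 RPKM in the mutant library and 104 RPKM in the control library. Igfbp4 made up 43.4% of that sum in the mutant and 55.1% in the control, Igfbp3 25.97% in the mutant and 19.2% in the control, and Igfbp5 18.6% in the mutant and 12.1% in the control. Igfbp2 made up 10.8% in the mutant and 11.8% in the control.

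Igfbp5, whose product binds extracellular matrix and is abundant in bone, showed the largest difference among the binding proteins. It had 19.99 RPKM in the mutant library (19.4 to 20.6) and 12.6 RPKM in the control library (11.4 to 13.9), 1.58-fold higher (1.43 to 1.76). Its log2 ratio of 0.62 was exceeded by 211 of the genes tested. The gene has 1 row of 5854 bases, on chromosome 1 from 72904639 to 72921439.

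Igfbp3, which encodes the main carrier of IGFs in postnatal blood, had 27.8 RPKM in the mutant library (26.7 to 29.0) and 19.98 RPKM in the control library (17.6 to 22.6). It was 1.39-fold higher (1.23 to 1.59), with a log2 ratio of 0.46 that 442 of the genes tested exceeded. The intervals of the levels of Igfbp5 and of Igfbp3 did not overlap between the libraries. Bone markers mostly stood higher in the same library. The 8 osteoblast markers summed to 50.5 RPKM in the mutant and 18.5 RPKM in the control. Of the 6 tested, 5 were at least 1.5-fold higher, against 2.47% of all genes tested. Sp7, Ibsp and Ifitm5 among them reached 1 RPKM only in the mutant library, so they were tested only because they are high there. Phex went the other way, with 1.05 RPKM in the mutant and 1.78 RPKM in the control, a ratio of 0.590 (0.442 to 0.798). Spp1, Bglap and Ifitm5 were listed at 0 in the control. In the mutant Spp1 had 0.0992 RPKM (about 5 reads), Bglap 0.147 RPKM (about 2 reads) and Ifitm5 1.12 RPKM (about 27 reads). The intervals of the folds of Spp1 and Bglap held 1, so their 0 in the shallower control shows no difference. Dental epithelium markers also summed higher in the mutant. So did those of cartilage, at 13.6 RPKM in the mutant and 8.47 RPKM in the control. Neuron and glia markers had 7.21 RPKM in the mutant and 4.81 RPKM in the control. Skeletal muscle markers had 4.62 RPKM in the mutant and 3.61 RPKM in the control. Macrophage markers, at 14.8 RPKM in the mutant and 19.3 RPKM in the control, were lower, as were the mesenchyme, endothelial and erythroid markers above. The part of any of these cells in the levels of Igf1, Igfbp3 and Igfbp5 was not tested.

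Igfbp4, whose product mostly restrains IGF action until Pappa cleaves it, was the most abundant binding protein gene and lower in the mutant library. It had 46.6 RPKM in the mutant (45.0 to 48.2) and 57.3 RPKM in the control (52.9 to 61.9), a ratio of 0.813 (0.746 to 0.886) and a log2 ratio of -0.29. The intervals did not overlap, but 16.8% of the genes tested had a lower log2 ratio. The gene lies on chromosome 11 from 98902574 to 98913957. Igfbp4 exceeded Igfbp5 2.33-fold in the mutant library and 4.54-fold in the control library.

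The start windows of these 3 binding protein genes are given for comparison, with the same motifs in capitals. In GRCm38.p6 they lie at chr1:72874816-72875115 on the minus strand (Igfbp5), chr11:7213874-7214173 on the minus strand (Igfbp3) and chr11:99040994-99041293 on the plus strand (Igfbp4).
Igfbp5: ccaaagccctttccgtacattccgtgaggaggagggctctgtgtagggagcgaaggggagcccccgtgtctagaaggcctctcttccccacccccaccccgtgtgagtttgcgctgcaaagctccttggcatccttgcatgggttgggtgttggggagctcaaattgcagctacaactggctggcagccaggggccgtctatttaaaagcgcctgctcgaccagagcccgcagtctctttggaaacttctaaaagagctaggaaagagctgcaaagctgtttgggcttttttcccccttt
Igfbp3: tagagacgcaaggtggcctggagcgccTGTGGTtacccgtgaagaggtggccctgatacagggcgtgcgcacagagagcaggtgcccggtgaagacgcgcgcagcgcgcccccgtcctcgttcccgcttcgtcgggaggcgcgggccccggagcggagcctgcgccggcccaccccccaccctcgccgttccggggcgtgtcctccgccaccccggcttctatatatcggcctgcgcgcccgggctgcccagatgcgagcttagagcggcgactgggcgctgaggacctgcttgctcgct
Igfbp4: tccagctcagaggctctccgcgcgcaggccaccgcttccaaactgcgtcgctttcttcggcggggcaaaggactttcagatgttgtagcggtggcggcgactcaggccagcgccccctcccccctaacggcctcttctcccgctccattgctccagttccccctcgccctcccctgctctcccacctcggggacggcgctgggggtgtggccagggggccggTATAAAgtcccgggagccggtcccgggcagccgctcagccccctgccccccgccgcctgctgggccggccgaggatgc
The Igfbp3 window held 1 Runx core, on the other strand as TGTGGT and 223 bases before the start, as did 16.8% of all windows on either strand. The Igfbp4 window held 1 TATA box, 28 bases before the start, which 13.6% of all windows held. The Igfbp5 window held none of the 4 motifs, and AGTAGC was in none of the 5 windows shown and in 9.72% of all windows. G and C made up 56.3% of the Igfbp5 window, 71.7% of the Igfbp3 window and 71.3% of the Igfbp4 window, against a median of 52.7% over all windows.

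Igfbp2 and Igfbp7 had overlapping intervals. Igfbp2, known in many embryonic tissues, had 11.6 RPKM in the mutant library (10.6 to 12.6) and 12.3 RPKM in the control library (9.82 to 15.2), a ratio of 0.944 (0.7498 to 1.20). Igfbp7, which binds IGFs only weakly and is found in vessel walls, had 1.23 RPKM in the mutant (0.907 to 1.63) and 1.88 RPKM in the control (0.952 to 3.34). Its ratio was 0.654 and its log2 ratio -0.37. About 48 reads in the mutant and 11 in the control lay behind it, and the fold of its reads had an interval of 0.340 to 1.39, so a difference of this size was not detectable at this depth. Nearly all its RPKM lay on the row NM_008048. Markers of vessel walls were also lower in sum in the mutant. The 7 pericyte and smooth muscle markers summed to 11.7 RPKM in the mutant and 16.9 RPKM in the control, with none at 0. Of the 4 tested, 1 was at least 1.5-fold lower with 1 RPKM added, against 3.52% of all genes tested. Acta2 had a plain ratio of 0.578 (0.373 to 0.924), but a log2 ratio of -0.54 with 1 RPKM added, within the limit. Cspg4 went the other way, at 1.08-fold (0.806 to 1.48). The part of these cells in the level of Igfbp7 was not tested.

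Genes that lie next to members of the family were mostly level. Igfbp2 and Igfbp5 lie 5.59 kb apart on chromosome 1, with log2 ratios of -0.08 and 0.62. Igfbp1, 3.55 kb from Igfbp3, was listed at 0 in the mutant library and 0.107 RPKM in the control library. Within 100 kb of a member, 33 genes were listed and 15 of them tested, and Igfbp5 as neighbour of Igfbp2 was the single one at least 1.5-fold apart. H19, the noncoding RNA gene that shares enhancers with Igf2 and is expressed from the maternal copy, lies 72.6 kb from it. It had 130 RPKM in the mutant (128 to 133) and 111 RPKM in the control (105 to 116), 1.18-fold (1.12 to 1.24). Ins2, the insulin gene 17.6 kb from Igf2, was listed at 0 in both libraries. Igf2as overlaps Igf2 and had 0.234 RPKM in the mutant and 0.356 RPKM in the control. Airn, the antisense RNA gene that overlaps Igf2r, had 1.79 RPKM in the mutant and 2.58 RPKM in the control. Strand was not given for these values, so reads of overlapping genes cannot be told apart.

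Genes that act around and below the receptor mostly lay within 1.5-fold. Of 68 genes in 7 pathway lists, 67 were listed and 51 tested. By 1.5-fold or more, 2 were higher in the mutant library and 2 lower, against the 2.47% and 3.52% of all genes tested. Their median log2 ratio was -0.04.

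Among proteases that cleave the binding proteins and the inhibitors of those proteases, 1 of 5 tested was 1.5-fold apart with 1 RPKM added. Pappa2, whose product cleaves the proteins encoded by Igfbp3 and Igfbp5, had 10.9 RPKM in the mutant library and 6.67 RPKM in the control library, 1.63-fold higher (1.45 to 1.84). Adam9 had 1.39 RPKM in the mutant and 2.29 RPKM in the control, a plain ratio of 0.608 (0.442 to 0.851). Its log2 ratio with 1 RPKM added was -0.46, within the 1.5-fold limit.

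Of 6 tested regulators of Igf genes, 1 was 1.5-fold apart with 1 RPKM added. Stat5b, which reached 1 RPKM only in the mutant library, had 1.01 RPKM there and 0.493 RPKM in the control. Its plain ratio was 2.06, on about 172 reads in the mutant and 13 in the control. The fold of its reads was 2.07 (1.18 to 3.95), and its log2 ratio with 1 RPKM added was 0.43. Ghr, the growth hormone receptor gene, had 13.3 RPKM in the mutant library and 21.9 RPKM in the control library, with a log2 ratio of -0.67 and a fold of its reads of 0.600 (0.542 to 0.665).

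Of 11 tested adaptors and inhibitors of the receptors, 1 was 1.5-fold apart. Grb14, an inhibitory adaptor gene, had 0.272 RPKM in the mutant and 1.24 RPKM in the control, on about 18 reads in the mutant and 13 in the control, a ratio of 0.220 (0.102 to 0.486). Grb14 reached 1 RPKM only in the control library, so it was tested only because it is high there. Of 20 genes from PI3K to Foxo, Eif4ebp1, a translation inhibitor gene below mTOR, had 3.14 RPKM in the mutant and 1.60 RPKM in the control, and the interval of its fold, 0.977 to 4.55, held 1. With 1 RPKM added, the other 19 lay within 1.5-fold. Among them Pik3r1 had 6.07 RPKM in the mutant and 9.36 RPKM in the control, a plain ratio of 0.649. The fold of its reads was 0.647 (0.575 to 0.729), and its log2 ratio with 1 RPKM added was -0.55.

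The remaining lists held no gene 1.5-fold apart. Igf2bp2 and Igf2bp3, which encode proteins that bind Igf2 mRNA, had 10.9 and 8.53 RPKM in the mutant library, against 11.1 and 9.27 RPKM in the control library. Insr, the insulin receptor gene, had 2.89 RPKM in the mutant and 3.21 RPKM in the control.

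**Figure D4:**
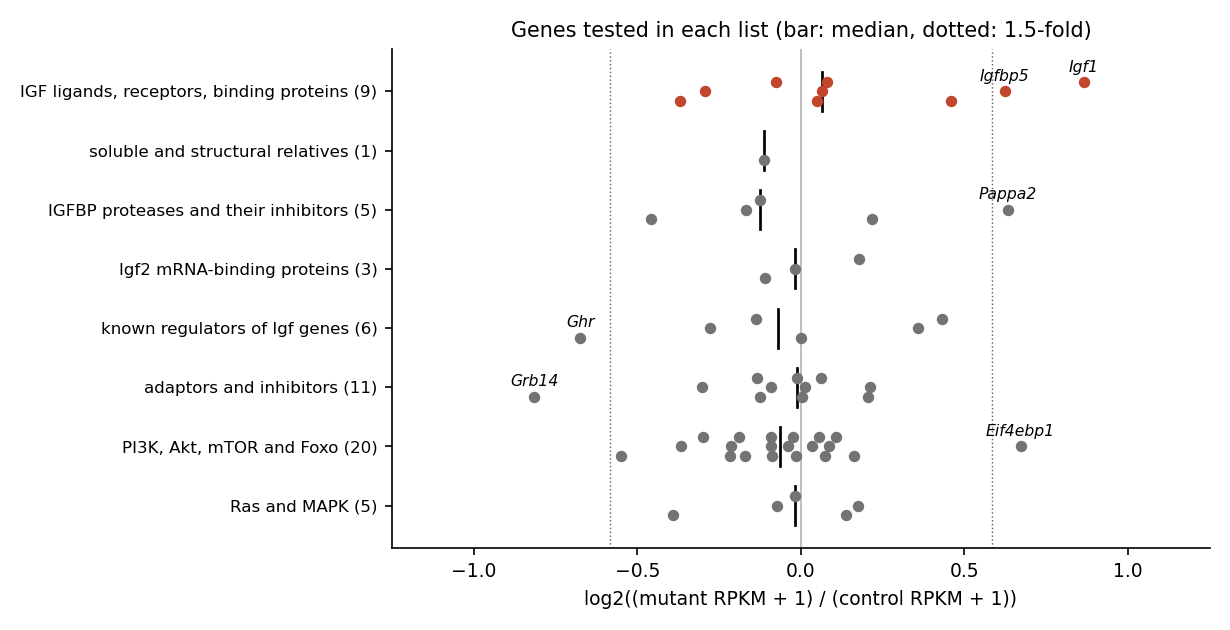
Log2 ratio of mutant over control (RPKM + 1) for the 9 IGF genes tested (red) and the tested genes of 7 pathway lists (grey), with a bar at each median and dotted lines at 1.5-fold. Igf1, Igfbp5, Pappa2 and Eif4ebp1 lie beyond the line on the higher side and Ghr and Grb14 on the lower side.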

How the data were processed

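RNA was converted with the NuGEN Ovation RNA-Seq v2 kit, per the labels' protocols. TopHat 1.4.1, Bowtie 0.12.7 and build mm9 are named in the submitters' processing notes. The deposited tables are named for Cufflinks and give RPKM, coverage, length, locus and status for 28107 transcript rows each, per the file headers. The RPKM values were used as the authors deposited them. The deposited coverage, the mean read depth of a transcript, is not scaled for library size. Coverage over RPKM was constant within each library and gave the depth ratio.

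Rows were joined by transcript and locus. The 348 rows without an OK status in either library were left out, none of them of an IGF gene, and the others summed per gene. Locus starts, taken to count from 0 in the files, are given counted from 1. Genes with at least 1 RPKM in a library were tested (9741). Read numbers were estimated as coverage times length over 44.3 bases, the mean over both libraries of the median product between 20 and 66 bases. Only 25.4% of 1955 low values in the mutant and 27.1% of 2934 in the control came within 0.1 of a whole read. The estimate is thus rough and no count model was fitted. Intervals are 95% exact Poisson for levels and Clopper-Pearson for folds of reads, and cover counting error only, since amplified reads are not independent molecules. The measures were tested on simulated data with independent whole reads drawn for each row. That simulation did not cover the assignment of reads among rows, amplification or the estimate of bases per read.

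Start windows came from RefSeq (GRCm38.p6). They were matched by accession through GENCODE M21, allowing 50 bases between the starts, for 9 of 17 rows and 7 of 10 genes. The GRCm38.p6 windows were not converted to or from mm9.

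All 10 genes are named, with every pathway gene at least 1.5-fold apart, or otherwise the 2 most abundant of its list, and the neighbours H19, Ins2 and Igfbp1. The examples of 1 pathway list are not reported here. Igf2as, Airn, Xist, Ddx3y, Adam9, Stat5b, Pik3r1, Sp7, Ibsp, Phex, Krt18, Acta2, Cspg4 and the mesenchyme examples were added after their values were seen. The members and all gene lists were chosen with earlier results of these data known. Python 3.11.15, pandas 2.3.3 and scipy 1.17.1 were used.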

Additional observations from a re-analysis of the deposited data

How the results depend on the processing

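With 1 library per genotype no library could be left out. No paired analysis was possible because each group has 1 sample. Of 71 log2 ratios of single IGF genes under 8 alternatives, 70 kept their direction and 68 moved by less than the counting interval. Part of this tally was fixed in advance. The settings that change the filter or keep all rows could not move these ratios, nor could the highest row for genes with 1 row. With only the highest transcript row per gene, the log2 ratio of Igf1 was 0.51 against 0.86, that of Igf2 was -0.34 against 0.05, 1 IGF gene instead of 2 was at least 1.5-fold higher, and 2 instead of 1 had a counting interval below 1. That row alone is used by construction, so the others' reads are left out. With the median ratio of all genes set to 1, Igf2 was at 0.11. Igf1 passed 2-fold with a pseudocount of 0.1 RPKM and on the TPM scale, which gave 1 IGF gene at least 2-fold higher each instead of 0. Both settings also gave 3 instead of 2 pathway genes at least 1.5-fold higher and 4 instead of 2 lower. They are not separate checks, since the 1 added on the TPM scale stands for less than 1 RPKM. A filter of 5 RPKM left 1 pathway gene higher and 1 lower, with fewer genes tested. Igfbp3 stayed between 0.46 and 0.52, Igfbp4 between -0.30 and -0.24 and Igfbp5 between 0.62 and 0.70. Taking 36 bases as 1 read gave 4 IGF genes with an interval above 1 instead of 3, and 75 bases left that number at 3. Both left 1 below. Over all genes, 78 were higher and 75 lower by 2-fold or more. These counts were 188 and 239 with the pseudocount of 0.1, 885 and 694 on the TPM scale, 143 and 267 with the highest row and 19 and 24 with the filter of 5 RPKM. Counts of about 126 reads for Igf1 and 11 for Igfbp7 in the control limit both values.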
